A study of Mus musculus with 89 samples.

Results

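The 8 genes described here, Hmgcs1, Idi1, Fdft1, Sqle, Lss, Cyp51, Insig1 and Srebf2, belong to cholesterol synthesis and its control. They were taken as every non-control probe whose transcript accession belongs to one of these symbols, which gave 12 probes for 8 of the 22851 genes tested. The working name of the set also speaks of cholesterol uptake, but none of the 8 genes encodes an uptake receptor, so they are called cholesterol synthesis genes here. Lung tissue came from female BALB/c mice that were obtained at 6 to 8 weeks of age. All of them, the control mice included, were sensitised intraperitoneally with ovalbumin (OVA) in alum. The mice were then challenged with PBS or OVA by oropharyngeal aspiration, alone or together with copper oxide nanomaterials: pristine (core) CuO, carboxylated CuO COOH, methylaminated CuO NH3 or PEGylated CuO PEG. Each material was given at 2.5, 10 or 40 µg per mouse and administration, and the lungs were taken a day after the last dose. By the paper's methods, the lungs were lavaged before a part of the left lobe was removed for RNA. The 89 samples, each a pool of 2 RNA samples, fall into 26 groups: 7 PBS and 8 OVA control pools, 4 pools each of CuO NH3 10 and CuO PEG 10, and 3 pools in each of the other 22 groups. A group named by material and dose alone was challenged with PBS, and “+ OVA” marks the OVA challenge. The pools are described as independent, but the labels do not tie them to single animals, and the p-values below measure the spread between pools.

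Animal cells build cholesterol from acetyl-CoA through mevalonate, isoprenoids, squalene and lanosterol. When membrane sterol is low, the SREBP transcription factors are carried to the Golgi, cleaved and sent to the nucleus, where they switch on the genes of this route, and when sterol is ample, Insig proteins hold them in the endoplasmic reticulum. Srebf2 encodes SREBP-2, the SREBP most tied to cholesterol synthesis, and both Insig1 and Srebf2 are themselves SREBP targets. In the lung, sterol is needed for surfactant, for the membranes of dividing cells and for alveolar macrophages, which take up and recycle surfactant lipid.

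Because SREBP-2 acts at promoters, the 250 bases before the RefSeq start of 3 members are printed from the GRCm38.p6 build, 5′ to 3′ on the strand of the gene. They stand for an early enzyme, a late enzyme and the factor itself: Hmgcs1 (chr13:119690101-119690350, plus strand), Cyp51 (chr5:4104698-4104947, minus strand) and Srebf2 (chr15:82147019-82147268, plus strand). Capitals mark matches, on either strand, to the sterol regulatory element pattern TCACNCCAC, to the CCAAT box bound by NF-Y (ATTGG on the other strand) and to the GC box GGGCGG bound by Sp factors (CCGCCC on the other strand).
Hmgcs1: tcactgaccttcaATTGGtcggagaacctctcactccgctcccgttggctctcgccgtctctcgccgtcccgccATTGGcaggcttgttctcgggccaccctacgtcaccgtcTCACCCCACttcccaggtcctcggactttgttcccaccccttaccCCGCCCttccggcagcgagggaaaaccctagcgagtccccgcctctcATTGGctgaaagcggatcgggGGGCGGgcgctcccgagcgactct
Cyp51: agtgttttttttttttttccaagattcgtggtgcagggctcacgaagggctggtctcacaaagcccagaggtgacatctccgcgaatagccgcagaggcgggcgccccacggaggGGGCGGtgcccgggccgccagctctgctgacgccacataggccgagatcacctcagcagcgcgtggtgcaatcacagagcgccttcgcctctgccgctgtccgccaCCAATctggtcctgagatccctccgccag
Srebf2: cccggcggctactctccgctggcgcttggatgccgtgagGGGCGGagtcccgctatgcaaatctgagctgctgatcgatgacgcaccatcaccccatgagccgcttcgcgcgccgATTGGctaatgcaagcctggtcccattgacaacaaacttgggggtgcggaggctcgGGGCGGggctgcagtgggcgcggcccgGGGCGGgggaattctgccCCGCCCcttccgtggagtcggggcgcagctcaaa
Over windows from 250 bases before to 50 bases after the start, TCACNCCAC occurred in 1.24% of 32851 promoters and in 1 of the 6 members with a window, Hmgcs1, at position -137. A fuller form, with C in place of N and an A before it, occurred in 0.0913% of all windows and in 0 of the 6 members. CCAAT was present in 6 of 6 members and in 37.4% of all windows, and GGGCGG in 6 of 6 members and in 35.7% of all windows. Sqle and Fdft1 had no window in the promoter table used here. These are letter matches only.

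All 8 genes were measured well above background in at least 88 of the 89 samples. Hmgcs1, Sqle, Idi1, Insig1 and Srebf2 were each read by 1 probe, Cyp51 and Fdft1 by 2 and Lss by 3. Levels are log2 intensities after quantile normalisation, with the effects of dye, slide and array position removed, and a log2 fold change is a difference on the log2 scale from the fitted model. Against controls and between challenges that model holds dye and array terms, so its values are not simply differences of the printed levels, whereas between doses and materials it holds the same terms as the levels. A gene was called where the limma adjusted p was below 0.05 and the absolute log2 fold change was above 0.58. The median foreground intensity was 86 in the Cy3 channel and 97 in the Cy5 channel, and every sample correlated with another at 0.990 or more.

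CuO and CuO COOH were hybridised on slides 1 to 3, and CuO NH3 and CuO PEG on slides 4 to 6, with control pools in both sets. Before any slide term was removed, the controls themselves differed between the sets. Insig1, which encodes the endoplasmic reticulum anchor of the SREBP complex, ran from 7.17 to 7.44 in the 3 PBS pools of slides 1 to 3 and from 7.97 to 8.47 in the 4 PBS pools of slides 4 to 6. Fdft1 (squalene synthase) ran from 9.65 to 9.97 and from 10.54 to 10.83. The difference of the means, slides 4 to 6 minus slides 1 to 3, was 1.02 for Insig1, 0.88 for Fdft1, 0.74 for Srebf2, 0.64 for Sqle, 0.49 for Cyp51, 0.43 for Hmgcs1, 0.32 for Lss and -0.06 for Idi1. Levels on the 2 slide sets are therefore comparable only after slide or array terms, and every comparison between a material of one set and a material of the other rests on the control groups that the sets share.

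**Figure D1:**
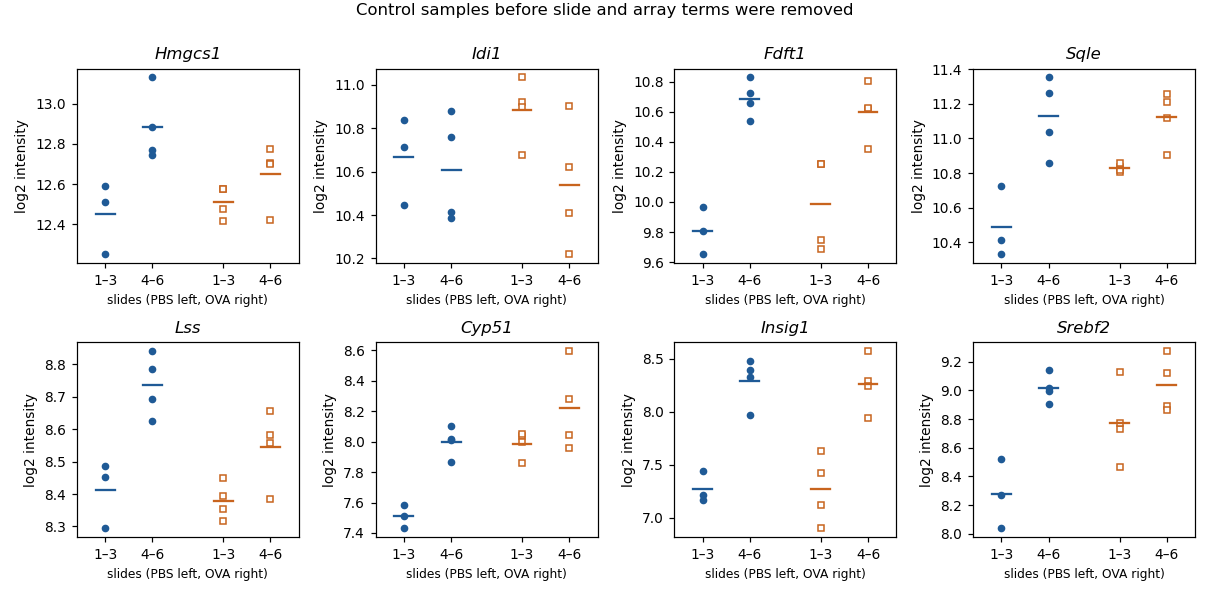
Log2 intensity of each of the 8 genes (vertical axis) in the PBS (left) and OVA (right) control pools on slides 1 to 3 and slides 4 to 6, before slide and array terms were removed; each point is 1 pool and short lines are means. In the PBS pools Insig1 and Fdft1 lie higher on slides 4 to 6 without overlap, with differences of 1.02 and 0.88.

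In PBS-challenged mice, Fdft1, Sqle and Cyp51 rose at 40 µg of CuO and of CuO COOH and at 10 µg of CuO COOH. Sqle and Cyp51 also rose at 40 µg of CuO NH3, Cyp51 at 10 µg of CuO NH3, and Hmgcs1 at 40 µg of CuO COOH. Idi1, Lss, Insig1 and Srebf2 were called in none of the 12 comparisons with the PBS controls by limma. In these, 36 of the 96 gene and exposure pairs had an unadjusted p under 0.05. Among all 22851 genes, from 1002 (CuO PEG 2.5) to 7859 (CuO NH3 40) had such a p in a comparison. In all, 13 of the 96 pairs were called, 13 of them higher, and 81 of the 96 log2 fold changes were positive. The 12 comparisons share the same PBS control pools, so their signs are not independent of each other. In CuO 40 against PBS, 3 of the 8 genes were called higher beside 7.81% of all genes, and in CuO COOH 10 it was 3 beside 2.49%. The counts were 4 beside 5.96% at CuO COOH 40, 1 beside 2.57% at CuO NH3 10, 2 beside 7.35% at CuO NH3 40 and 0 beside 1.67% at CuO PEG 40. No member was called at 2.5 µg of any material. The share of all genes called higher there was 0.814% for CuO, 0.337% for CuO COOH, 0.823% for CuO NH3 and 0 for CuO PEG. Replicate 2 of CuO COOH 2.5 was alone on its array, so the array term takes it up. The comparison of CuO COOH 2.5 with PBS therefore rests on the other pools of that group. Nor was a member called at 10 µg of CuO (2.47%) or CuO PEG (0.398%). Counting genes for which every exposed pool lay above every PBS pool gave 6 of 8 members at CuO 40 beside 19.1% of all genes, 7 beside 13.5% at CuO COOH 10 and 6 beside 18.1% at CuO COOH 40. It gave 6 beside 10.7% at CuO NH3 10, 5 beside 19.1% at CuO NH3 40 and 7 beside 10.6% at CuO PEG 40.

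**Figure D2:**
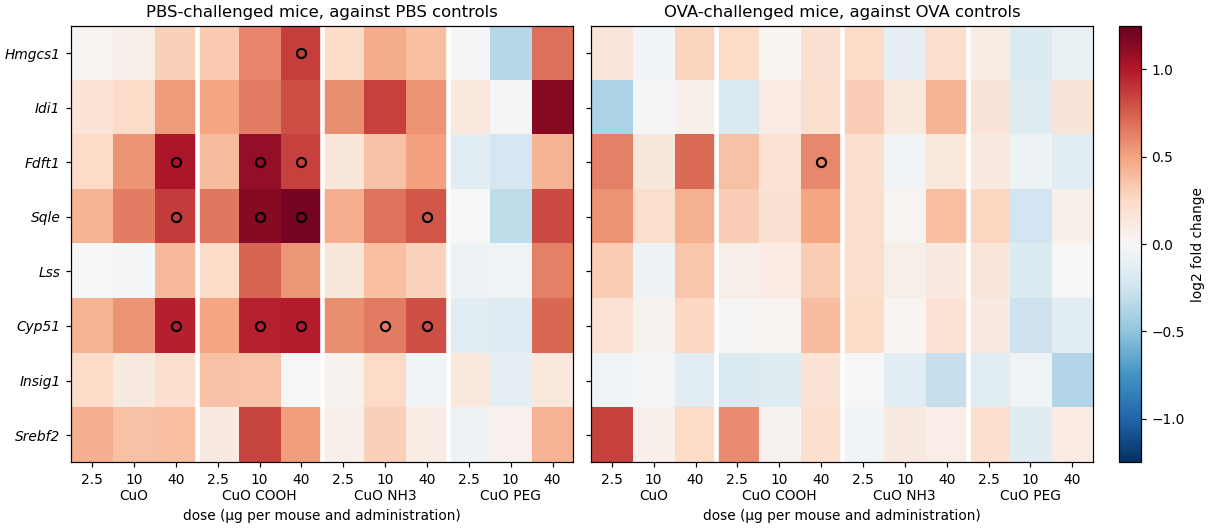
Log2 fold changes of the 8 genes (rows) for each material and dose in µg (columns) against the controls of the same challenge, PBS at left and OVA at right; colour gives the value and a circle marks a called one. There are 13 circles at left and 1 at right.

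Of the early enzymes, Hmgcs1 (chr13:119690351-119708260, GRCm38.p6 as for all coordinates) condenses acetyl-CoA units into HMG-CoA. Its level in the 7 PBS pools ran from 12.52 through a median of 12.71 to 12.89. The 3 CuO COOH 40 pools had 13.29, 13.12 and 12.98, all above the highest control. The log2 fold change was 0.87 (SE 0.28, adjusted p = 0.0461), or 1.82-fold. With slide and array position in place of the array as batch terms it was 0.42 (adjusted p = 0.0204), under the size threshold, and the call was lost in 9 of the 10 fits that left out 1 pool. At CuO PEG 40 the pools had 13.19, 13.23 and 13.08, also above all controls, with a log2 fold change of 0.69 that was not called (adjusted p = 0.163).

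Idi1 (chr13:8885606-8892396), the isopentenyl diphosphate isomerase that balances the isoprenoid building blocks, had PBS levels of 10.50 to 10.89 with a median of 10.69. The 3 CuO PEG 40 pools had 11.53, 11.82 and 11.36, the highest mean of the 26 groups. Their log2 fold change against PBS was 1.14 (SE 0.31), or 2.20-fold, and missed the threshold with an adjusted p of 0.0522. The 4 CuO NH3 10 pools had 11.19, 11.38, 11.30 and 11.36, with a log2 fold change of 0.85 that was not called. In both groups every pool lay above every PBS pool. With slide and position as batch terms, Idi1 was called in CuO COOH 10, CuO COOH 40, CuO NH3 10 and CuO PEG 40 against PBS, the last at 0.90.

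Fdft1 (chr14:63145150-63181687), squalene synthase, is the first enzyme committed to sterols. Its PBS levels ran from 10.07 to 10.51 with a median of 10.26. The CuO 40 pools had 10.97, 11.10 and 10.92, the CuO COOH 10 pools 10.89, 10.87 and 10.88, and the CuO COOH 40 pools 10.68, 10.77 and 10.77. All 9 pools were above the highest control. The log2 fold changes were 1.02 (SE 0.26, adjusted p = 0.0076), 1.10 (SE 0.28, adjusted p = 0.0263) and 0.85 (SE 0.25, adjusted p = 0.0268), which is 2.03-, 2.14- and 1.81-fold. The 2 Fdft1 probes gave 1.01 and 1.03 at CuO 40, but 0.66 and 1.04 at CuO COOH 40. With slide and position as batch terms the 3 values were 0.73, 0.60 and 0.47, and the last, at CuO COOH 40, was under the size threshold. At CuO NH3 40 the pools had 10.72, 10.67 and 10.87 and the log2 fold change of 0.51 (adjusted p = 0.0424) was under the size threshold.

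Sqle (chr15:59315092-59331193), squalene epoxidase, adds the oxygen from which the sterol ring is closed and is a rate-limiting step of the later route. Its PBS levels ran from 10.70 through 10.88 to 11.06. The CuO 40 pools had 11.47, 11.66 and 11.47, the CuO COOH 10 pools 11.30, 11.49 and 11.75, the CuO COOH 40 pools 11.64, 11.54 and 11.41, and the CuO NH3 40 pools 11.63, 11.34 and 11.63. Each of these 12 pools was above every PBS pool. The largest log2 fold change was 1.20 at CuO COOH 40 (SE 0.28, adjusted p = 0.00488), or 2.30-fold. It was 1.14 at CuO COOH 10 (SE 0.31, adjusted p = 0.0378), 0.87 at CuO 40 (SE 0.29, adjusted p = 0.0373) and 0.78 at CuO NH3 40 (SE 0.20, adjusted p = 0.0058). With slide and position as batch terms these 4 values came to 0.64 to 0.66 and were called. At CuO PEG 40 the pools had 11.40, 11.57 and 11.48, again above every PBS pool, and the log2 fold change of 0.83 was not called (adjusted p = 0.0670).

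Lss (chr10:76531565-76557139) closes the ring to lanosterol. Its PBS levels ran from 8.47 through 8.58 to 8.73, and the CuO 40 pools had 8.97, 8.90 and 9.06. All 3 were above the controls, but the log2 fold change of 0.41 was not called. The 3 Lss probes disagreed there, with log2 fold changes of 1.18, -0.62 and 0.67, and at CuO COOH 10 with 1.34, 0.01 and 0.83. At CuO NH3 40 they gave 0.57, -0.18 and 0.48, and at CuO PEG 40 0.53, 0.69 and 0.65. The gene-level value for Lss is a mean over these 3 probes.

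Cyp51 (chr5:4080674-4104697), the lanosterol demethylase, was called in 5 of the 12 comparisons with PBS, more than any other member. Its PBS levels ran from 7.61 through 7.79 to 7.99. The CuO 40 pools had 8.51, 8.50 and 8.47, the CuO COOH 10 pools 8.35, 8.37 and 8.55 and the CuO COOH 40 pools 8.52, 8.37 and 8.46. The CuO NH3 10 pools had 8.08, 8.27, 8.21 and 8.25 and the CuO NH3 40 pools 8.45, 8.29 and 8.41. No pool of these 5 groups overlapped the controls. The log2 fold changes were 0.97 at CuO 40 (SE 0.25, adjusted p = 0.0076), 0.96 at CuO COOH 10 (SE 0.26, adjusted p = 0.0420) and 0.98 at CuO COOH 40 (SE 0.24, adjusted p = 0.0073). At CuO NH3 they were 0.65 at 10 µg (SE 0.18, adjusted p = 0.0330) and 0.81 at 40 µg (SE 0.17, adjusted p = 0.00118), the lowest adjusted p of the 96 pairs. Its 2 probes gave 0.78 and 1.15 at CuO 40. The CuO NH3 10 value was 0.42 with slide and position as batch terms, under the size threshold.

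The regulators are Insig1 (chr5:28071412-28078662), the anchor that retains the SREBP complex, and Srebf2 (chr15:82147269-82205379), and neither was called against PBS. Insig1 had PBS levels of 7.54 to 7.97 with a median of 7.86, and the CuO 40 pools, at 8.09, 7.87 and 7.91, overlapped them. Its log2 fold changes at 40 µg were 0.21 for CuO, -0.01 for CuO COOH, -0.04 for CuO NH3 and 0.14 for CuO PEG. Srebf2 had PBS levels of 8.26 to 8.88 with a median of 8.73. Its highest group mean was in CuO 2.5, with pools at 9.23, 9.07 and 9.14, where the log2 fold change of 0.45 was not called. These pools lay above all controls, which held for 1 of the 8 members there. The share of all genes is not given here. At 40 µg the log2 fold changes of Srebf2 were 0.38, 0.52, 0.10 and 0.44 in the same order of materials. The lowest of the 7 PBS pools, at 8.26, lay far below the next at 8.65.

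**Figure D3:**
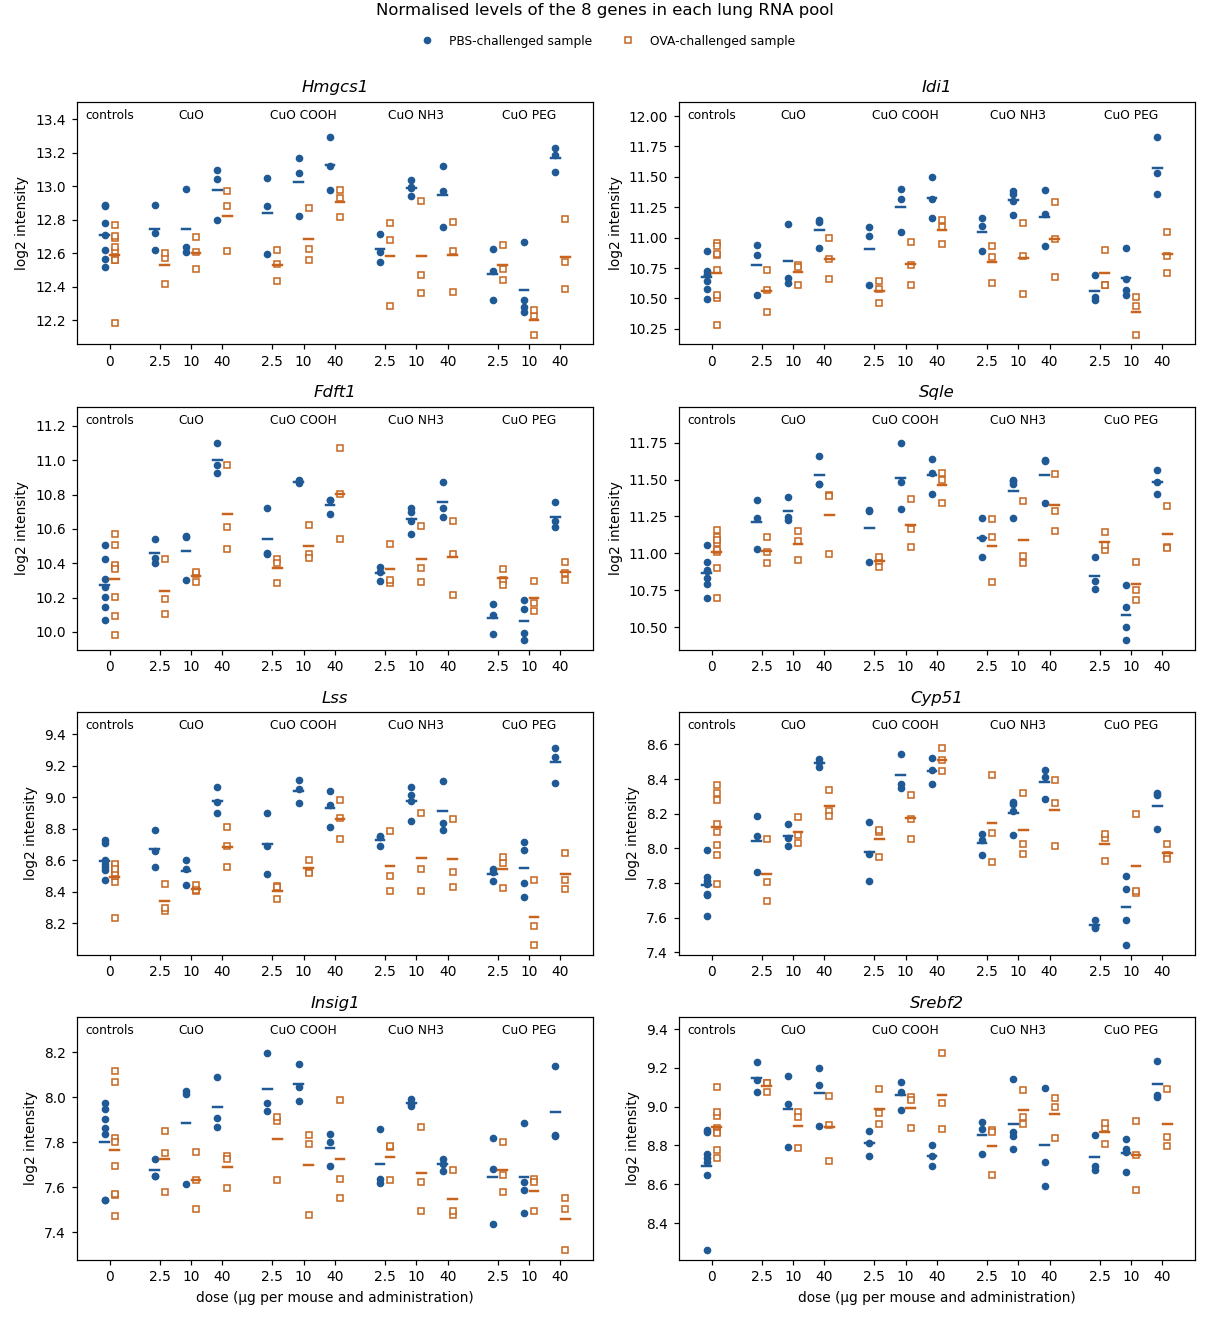
Log2 intensity of the 8 genes in each lung RNA pool, after dye, slide and position terms were removed, by material and dose in µg; filled points are PBS-challenged and open squares OVA-challenged pools, and short lines are group means. For Cyp51 the 3 CuO 40 pools at 8.47 to 8.51 lie above the highest PBS pool at 7.99.

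How far these calls hold depends on how the array is handled. With the array as a random instead of a fixed term, the model held no slide term. Differences between the slide sets, such as 1.02 for Insig1 and 0.88 for Fdft1 in the PBS pools, were then left in. Under this random term none of the 10 calls at CuO 40, CuO COOH 10 and CuO COOH 40 was kept, and Fdft1 at CuO COOH 40 came to 0.07. The members called there under that term were Idi1 in both CuO COOH groups and, lower than PBS at -0.59, Insig1 at CuO COOH 40. The calls of Cyp51 at CuO NH3 10 and of Sqle and Cyp51 at CuO NH3 40 were kept, and 6 members were called at CuO PEG 40. Leaving out PBS replicate 2 took the 13 calls to 8 and leaving out PBS replicate 3 took them to 5, and leaving out CuO 40 replicate 2, CuO COOH 10 replicate 3 or CuO COOH 40 replicate 1 took the count of its own comparison to 0. Cyp51 at CuO NH3 10 lost its call in 8 of the 11 fits that left out 1 pool. Scaling each sample to its 75th percentile instead of quantile normalisation gave 4 of the 96 pairs called, with 1 at CuO 40, where it moved the median of all genes by 0.40 and put 5 of the 8 members above that median.

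Of the 8 comparisons of 40 with 2.5 µg, CuO PEG with PBS was the one that gave called members. The 40 µg pools of CuO PEG exceeded every 2.5 µg pool for all 8 genes, as they did for 16.2% of all genes, and 6 of the 8 genes were called higher beside 1.94% of all genes. The 40 µg pools lay on slides 4 and 5 and the 2.5 µg pools on slides 4, 5 and 6, so both doses were within one slide set. Idi1 went from 10.49, 10.69 and 10.51 at 2.5 µg to 11.53, 11.82 and 11.36 at 40 µg, a log2 fold change of 1.01 (SE 0.18, adjusted p = 4.9e-05), or 2.01-fold. Lss went from 8.47, 8.53 and 8.55 to 9.09, 9.31 and 9.26, a log2 fold change of 0.71 (SE 0.12, adjusted p = 4.0e-05), with its 3 probes at 0.79, 0.48 and 0.86. Between the 2 sets of 3 pools there was a clear gap for both genes.

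Cyp51 went from 7.54, 7.55 and 7.59 to 8.11, 8.31 and 8.32, a log2 fold change of 0.69 (SE 0.13, adjusted p = 0.000279). Hmgcs1 went from 12.32, 12.62 and 12.49 to 13.19, 13.23 and 13.08, a log2 fold change of 0.69 (SE 0.16, adjusted p = 0.0021). The other called genes were Sqle at 0.64 (adjusted p = 0.0016) and Fdft1 at 0.59 (adjusted p = 0.0021), the latter just past the size threshold. Insig1 at 0.29 (adjusted p = 0.279) and Srebf2 at 0.37 (adjusted p = 0.0692) were not called. With the array as a fixed term in place of slide and position, only Cyp51 was called, at 0.86.

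For Hmgcs1, Sqle and Fdft1 the mean at 10 µg of CuO PEG lay below the means at 2.5 and 40 µg. For Fdft1 it was 10.07 against 10.08 at 2.5 µg, and for Insig1 both were 7.65. The 4 pools at 10 µg had Hmgcs1 levels of 12.28, 12.32, 12.67 and 12.25 and Sqle levels of 10.50, 10.64, 10.79 and 10.41. For Hmgcs1 and for Sqle, 3 of the 4 pools were below every PBS pool. Against PBS, 7 of its 8 log2 fold changes were negative, from -0.36 for Hmgcs1 to -0.02 for Idi1, with Srebf2 at 0.05, and none was called. For the other 3 materials, 40 against 2.5 µg gave no called member in either challenge, beside 3.08%, 3.65% and 4% of all genes called higher for CuO, CuO COOH and CuO NH3 with PBS and 1.56%, 1.65% and 1.29% with OVA. For CuO PEG with OVA none was called either, beside 0.91%. With PBS, differences with an adjusted p below 0.05 but under the size threshold were 0.45 for Cyp51 and 0.54 for Fdft1 in CuO and 0.47 for Cyp51 in CuO COOH. In CuO NH3 they were 0.35 for Cyp51, 0.41 for Fdft1 and 0.42 for Sqle. With OVA they were 0.40 for Cyp51 and 0.45 for Fdft1 in CuO, and 0.52 for Sqle, 0.46 for Lss, 0.46 for Cyp51 and 0.43 for Fdft1 in CuO COOH.

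The OVA challenge alone was set against PBS in mice without particles. It moved none of the 8 genes past the limma threshold, beside 5.22% of all genes called either way. An unadjusted p under 0.05 was found for 5344 of all 22851 genes and for 1 of the 8. That gene was Cyp51, with OVA levels of 7.80 to 8.37 and a median of 8.12, and 6 of the 8 OVA pools above the highest PBS pool. Its log2 fold change was 0.49 (SE 0.15, adjusted p = 0.0290), under the size threshold, and it was 0.51 within slides 1 to 3 (adjusted p = 0.096) and 0.45 within slides 4 to 6 (adjusted p = 0.489). The others ran from -0.10 for Lss to 0.21 for Sqle.

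Among OVA-challenged mice the particles moved 1 of the 96 gene and exposure pairs past the threshold. Fdft1 rose with CuO COOH 40 + OVA, with pools at 11.07, 10.80 and 10.54 against OVA pools of 9.98 to 10.57 with a median of 10.37. The log2 fold change was 0.60 (SE 0.18, adjusted p = 0.0469), with 2 of the 3 pools above the highest OVA pool, beside 2.22% of all genes called higher. It was not called when CuO COOH 40 + OVA replicate 1 or 2 or OVA replicate 1, 3 or 7 was left out. Of the 96 pairs, 67 were positive and 6 had an unadjusted p under 0.05. Among all 22851 genes, from 910 (CuO 2.5 + OVA) to 5065 (CuO COOH 40 + OVA) had such a p in a comparison. No other exposure gave a call, beside shares of all genes called higher of 0, 0.21% and 0.972% for the rising doses of CuO, 0.0175% and 0.411% for the lower doses of CuO COOH, 0.49%, 1.38% and 2.05% for CuO NH3 and 0, 0 and 0.394% for CuO PEG. Insig1 had negative log2 fold changes in 11 of the 12 exposures against OVA, from -0.37 at CuO PEG 40 + OVA, and none of these was called. The 12 exposures share the same OVA control pools, so their signs are not independent of each other. The comparison of CuO 2.5 + OVA with OVA, where Srebf2 had a log2 fold change of 0.85, rests on 1 of the 3 pools, because the others were alone on their arrays and the array term takes them up.

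With OVA, the CuO PEG 40 pools had Hmgcs1 at 12.55, 12.81 and 12.39, Idi1 at 10.85, 11.05 and 10.71, and Lss at 8.47, 8.64 and 8.42. With PBS the lowest pools of the same genes were 13.08, 11.36 and 9.09. For Srebf2 the pools overlapped, at 8.84, 9.09 and 8.80 with OVA and 9.06, 9.05 and 9.23 with PBS. The difference between the effect of 40 µg in OVA-challenged mice and that in PBS-challenged mice was tested directly for the 4 materials, and 31 of the 32 values were negative. None was called by limma, beside 1.11%, 1.05%, 1.59% and 0 of all genes for CuO, CuO COOH, CuO NH3 and CuO PEG, with a lowest adjusted p of 0.258. An unadjusted p under 0.05 was found for 9 of the 32. Of all 22851 genes, 2103, 2199, 2881 and 1114 had such a p for the same materials in turn. Cyp51 had -0.71 (SE 0.27) for CuO, -0.59 for CuO COOH, -0.63 for CuO NH3 and -0.86 (SE 0.29) for CuO PEG. The 4 values for a gene share the same control pools, so they are not independent of each other.

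Idi1 in CuO PEG had the largest negative value, -0.98 (SE 0.45, adjusted p = 0.967). With slide and position as batch terms, Cyp51 was called at CuO 40 and Lss and Cyp51 at CuO PEG 40.

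**Figure D4:**
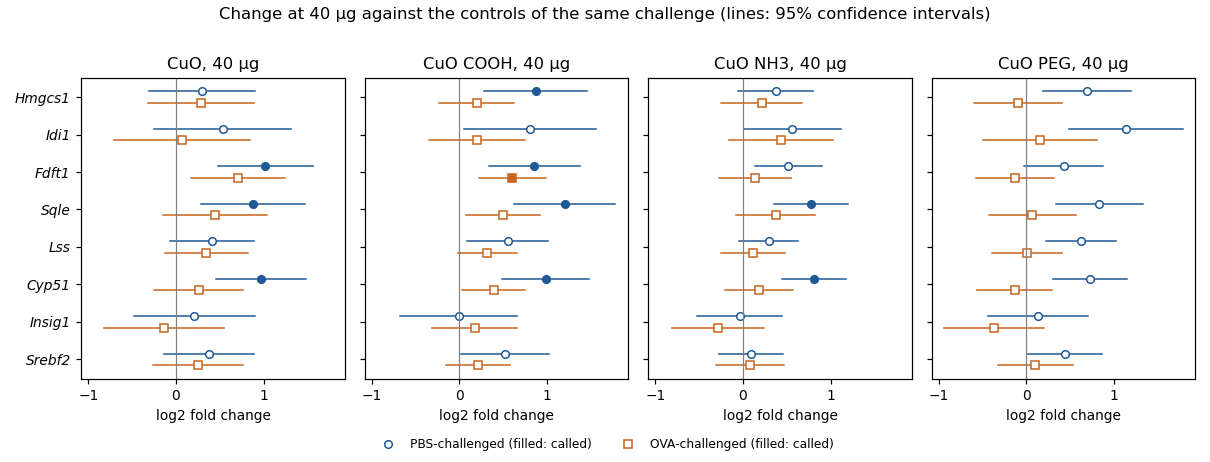
Log2 fold change of the 8 genes at 40 µg of each material against the controls of the same challenge (horizontal axis), shown as circles for the PBS and squares for the OVA challenge; lines are 95% confidence intervals and filled points are called. For CuO PEG the Idi1 value is 1.14 with PBS and the Hmgcs1 value 0.69, and neither is filled.

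The coatings change the surface of the particle: carboxyl groups on CuO COOH, a positively charged NH3 terminal ligand on CuO NH3 and polyethylene glycol chains on CuO PEG. Coated materials were set against core CuO, dose for dose and within a challenge, in 18 comparisons and 144 tests with p-values adjusted over all genes in each comparison. Doses were equal in mass of the whole material. The paper reports less copper in each coated material than in core CuO, and least in CuO PEG. Surface and amount of copper therefore differ together in these comparisons. One test was called. Sqle was lower in CuO PEG 10, at 10.50, 10.64, 10.79 and 10.41, than in CuO 10, at 11.38, 11.23 and 11.24, by a log2 fold change of -0.70 (95% interval -1.02 to -0.38, adjusted p = 0.0100), beside 0.888% of all genes called lower. The groups did not overlap, as for 3 of the 8 members, and the share of all genes is not given here. But the materials lay on different slide sets, and with the array as a fixed term the Sqle value of -0.96 had an adjusted p of 0.272.

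At 40 µg no coating differed from core CuO past the threshold, and the intervals show how large a difference the data allow. For CuO COOH they were -0.28 to 0.27 for Sqle, -0.30 to 0.21 for Cyp51 and -0.15 to 0.45 for Hmgcs1. For CuO NH3 the values ran from -0.27 for Srebf2 to 0.11 for Idi1. For CuO PEG, Idi1 had 0.51 (0.10 to 0.92, adjusted p = 0.098) and Fdft1 had -0.33 (-0.64 to -0.02, adjusted p = 0.165). At 2.5 µg all 8 values of CuO PEG against CuO were negative, from -0.48 for Cyp51 (adjusted p = 0.092) to -0.03 for Insig1, and none was called. The share of all genes called either way at 2.5, 10 and 40 µg was 0.188%, 0.0175% and 0.109% for CuO COOH against CuO, 0, 0.162% and 0.123% for CuO NH3, and 1.86%, 1.06% and 4.38% for CuO PEG. With OVA, where no member was called, it was 0, 0.00438% and 0.319%, then 0, 0 and 0.372%, and then 0.00438%, 0 and 0.394%.

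Over the 26 group means, the 6 enzymes varied together. Pearson's r between pairs of enzymes ran from 0.66 for Lss and Cyp51 to 0.94 for Idi1 and Lss. Insig1 had an r of 0.55 with the mean of the other 7 members, and Srebf2 had 0.39. These are descriptions over groups that share slides, dye pairs and controls, not independent samples. Within groups, over the 89 samples, r ran from 0.12 to 0.81 among the enzymes and from -0.10 to 0.65 for Srebf2. The range of group means was 1.19 for Idi1, 0.98 for Lss, 0.96 for Hmgcs1, 0.95 for Sqle and Cyp51, 0.93 for Fdft1, 0.60 for Insig1 and 0.45 for Srebf2 on the log2 scale. In the order of the means, no step between neighbours exceeded the median SD of the 26 groups for Insig1 and Srebf2. For each enzyme 1 to 3 steps did. This describes the means and does not test neighbouring groups.

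**Figure D5:**
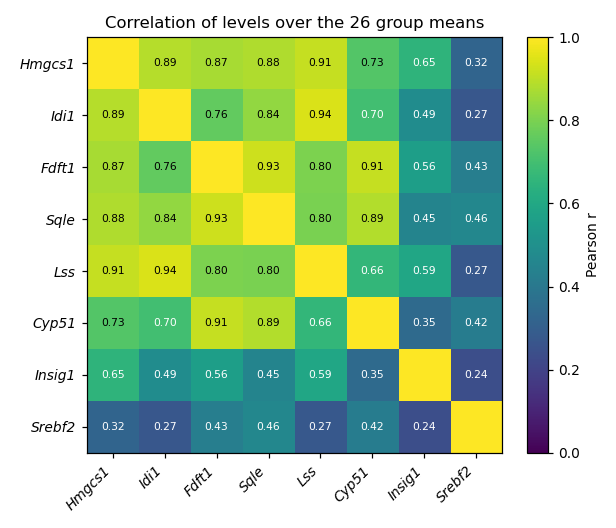
Pearson's r between the levels of each pair of the 8 genes over the 26 group means (colour and printed value). The 6 enzymes have values of 0.66 to 0.94 among themselves, and Srebf2 has 0.24 to 0.46 with the others.

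The lowest groups were alike for several members. Hmgcs1, Idi1 and Lss were lowest in CuO PEG 10 + OVA, at means of 12.20, 10.38 and 8.24, and highest in CuO PEG 40, at 13.17, 11.57 and 9.22. Sqle and Fdft1 were lowest in CuO PEG 10, at 10.59 and 10.07, and highest in CuO 40, at 11.53 and 11.00. Cyp51 was lowest in CuO PEG 2.5, at 7.56, and highest in CuO COOH 40 + OVA, at 8.51. Insig1 was lowest in CuO PEG 40 + OVA, at 7.46, and highest in CuO COOH 10, at 8.06. Srebf2 was lowest in the PBS controls, at 8.69.

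Of all other genes, those whose group means followed the mean of the members' scaled levels most closely over the 26 groups were Fdps, farnesyl diphosphate synthase (r = 0.935), Aacs, acetoacetyl-CoA synthetase (0.921), Msmo1, a sterol methyl oxidase (0.893), Fads1, a fatty acid desaturase (0.866), and Nsdhl, a sterol dehydrogenase (0.865).

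The other enzymes of the route are 13 measured genes. Of them, 4 were called higher at CuO 40 beside 7.81% of all genes, and 5 at CuO COOH 40 beside 5.96%. It was 4 beside 7.35% at CuO NH3 40 and 2 beside 1.67% at CuO PEG 40. None of the 13 was called lower in these comparisons. Their median log2 fold changes were 0.53, 0.51, 0.51 and 0.53, where the median of all genes was within 0.01 of 0. Mvd, mevalonate diphosphate decarboxylase, had 1.27 at CuO 40, 0.88 at CuO COOH 40 and 0.96 at CuO NH3 40. Tm7sf2, a sterol reductase, had 1.03, 0.94 and 0.64 there and 0.75 at CuO PEG 40 (adjusted p = 0.00544). Fdps was called at CuO 40 (0.78), CuO COOH 40 (0.91) and CuO PEG 40 (0.77). In OVA against PBS 1 of the 13 was called, Mvd at 0.76, beside 5.22% of all genes called either way. At CuO PEG 40 + OVA none of the 13 was called, with a median of -0.04, beside 0.394% of all genes called higher.

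Genes that sense sterol and process SREBP (Srebf1, Scap, Insig2, Mbtps1, Mbtps2 and Stard4) were not called in any of these comparisons, with a median of -0.14 at CuO 40. Of 11 genes of sterol export, storage and the liver X receptors, 2 were called higher and 2 lower at CuO 40, where 1784 of all 22851 genes were called higher and 1424 lower. Ch25h, which makes an oxysterol that restrains SREBP, had 2.42, and Npc2, which carries sterol out of lysosomes, had 1.27. Abcg1, a sterol exporter, had -1.69, and Mylip, a ubiquitin ligase induced through liver X receptors, had -1.08. At CuO PEG 40, Ch25h had 2.20 and Abcg1 -1.07. Of 10 fatty acid synthesis genes, 2 were called higher at CuO 40, the desaturase Fads2 at 0.72 and malic enzyme Me1 at 0.71, and 0 at CuO PEG 40.

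Cell type markers moved in the same samples. The mean log2 level of 6 genes of dividing cells was 7.33 to 8.03 in PBS, 10.06 to 10.27 in CuO 40, 9.14 to 9.27 in CuO PEG 40 and 9.21 to 9.91 in OVA, and 6 of 6 were called higher in each of these 3 groups against PBS. Of all genes, 7.81%, 1.67% and 3.72% were called higher there. The share was 2.49% at CuO COOH 10, 5.96% at CuO COOH 40 and 7.35% at CuO NH3 40. Called lower were 1424 of 22851 genes at CuO 40, 254 at CuO COOH 10 and 984 at CuO COOH 40. The mean of 6 alveolar macrophage markers was 10.69 to 10.90 in PBS, 9.02 to 9.25 in CuO 40 and 9.63 to 9.81 in CuO PEG 40, with 3 and 1 of 6 called lower. Neutrophil markers were at 11.18 to 11.66 in PBS and 11.79 to 12.24 in CuO 40, with 4 of 6 called higher and 1 lower. Markers of monocytes and recruited macrophages were at 10.62 to 10.85 in PBS, 11.02 to 11.19 in CuO 40, 11.06 to 11.09 in CuO COOH 40 and 11.09 to 11.17 in CuO NH3 40, with 2, 2 and 3 of 6 called higher and 1 lower in each. In CuO COOH 10 and CuO COOH 40, 6 of 6 genes of dividing cells were called higher and 0 of 6 neutrophil markers were called. The mean of the alveolar macrophage markers was 10.13 to 10.50 in CuO COOH 10 and 9.70 to 10.28 in CuO COOH 40. Every pool was below the PBS range of 10.69 to 10.90. From the fitted model these markers had median log2 fold changes of 0.14 and 0.11, with 0 and 2 of 6 called lower. The 7 alveolar type 2 markers were at 14.12 to 14.49 in PBS and 14.22 to 14.40 in CuO 40, with 0 called. The lung tissue markers were well above background in 89 of 89 samples, whereas the eosinophil genes Epx and Prg2 were in 43 and 70. The part of these cells in the changes of the 8 genes was not tested. The lungs were lavaged before tissue was taken, so the markers describe the cells left in the tissue. In such RNA fewer cells of a type and less RNA per cell cannot be told apart.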

How the data were processed

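Lung RNA pools were measured on 2-colour Agilent mouse arrays. The authors deposited the scanner intensity of each spot and channel, and a table of normalised log2 values per probe. By the methods, the authors took median foreground to log2, applied quantile normalisation and adjusted for labelling and array with ComBat before limma. Here each sample's own channel gave the median foreground, which was put on the log2 scale with no background subtracted and quantile normalised over 89 samples on 46 arrays of 6 slides. After 3671 control spots of 62976 were dropped, gene values were means over probes (56605 probes, 22911 genes, 22851 genes tested). limma 3.58.1 in R 4.3.3, with the package data.table (version 1.17.8), fitted all 26 groups, with dye and array as terms against controls, for OVA against PBS and for exposure by challenge, and with dye, slide and array position between materials and doses. P-values were adjusted by Benjamini-Hochberg over all genes in each of 55 comparisons (440 member tests). Figures were drawn with Python 3.11.15 and matplotlib 3.10.9. The alternatives were another scaling, normexp background correction, loess, a filter on dim probes, the deposited table, other batch terms, a replicate block, controls of the same slides and leaving out each replicate. Named genes are the 8 members, at most 4 called genes of a list, and the 5 genes of most similar pattern. Outside that rule, the uncalled genes of the sterol sensing list and the eosinophil genes Epx and Prg2 are named, the latter after their values were seen. The members and lists were chosen with earlier results of these data known. Some related genes are not reported here. The number of arrays limits the precision. Foreground was 2.96 (Cy3) and 1.80 (Cy5) times local background in the median sample.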

Additional observations from a re-analysis of the deposited data

Results flagged for a closer look

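In 5 of the 32 pairs of member and group with 4 to 10 pools that were examined, a single pool lay far from the others, where chance gives about 1 in 20 groups. Hmgcs1 in CuO PEG 10 replicate 3 was at 12.67, above the other 3 pools. Hmgcs1 and Lss were both lowest in OVA replicate 6, at 12.18 and 8.23. Sqle in CuO NH3 10 replicate 1 was at 11.24, below the other 3 pools, and Srebf2 in PBS replicate 1 was at 8.26, below the other 6.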

How the results depend on the processing

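Of the 21 called pairs of gene and comparison, 0 changed sign under any alternative, 2 were called under every one, and 6 were lost with no left-out pool. Normexp correction moved no count of calls by over 1.5 times. The cause of the changes below was not tested unless named.

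Scaling to the 75th percentile gave 4 calls against PBS where 13 are reported, 0 against OVA, 0 between materials, 1 at CuO 40, 0 at CuO COOH 10, 1 at CuO COOH 40, 0 at CuO NH3 10, 0 at CuO COOH 40 + OVA and 0 for CuO PEG 10 against CuO 10. This scaling moved the median of all genes by up to 0.80 (CuO 2.5 + OVA) and by 0.40 at CuO 40. Relative to that median, 5 of the 8 members were higher at CuO 40, 6 at CuO COOH 10, 7 at CuO COOH 40 and 8 at CuO PEG 40. With the array as a random term, which leaves slide sets in, there were 2 calls against OVA, 1 for exposure by challenge, 18 between materials, 0 at CuO 40, 1 at CuO COOH 10, 2 at CuO COOH 40 (other members than those reported as called), 3 at CuO NH3 10, 6 at CuO PEG 40 and 0 at CuO COOH 40 + OVA. With the batch terms exchanged there were 0 calls against OVA, 3 for exposure by challenge, 0 between materials, 1 between doses, 3 at CuO PEG 40, 0 at CuO COOH 40 + OVA, 0 for CuO PEG 10 against CuO 10 and 1 for CuO PEG 40 against 2.5. Controls of the same slides gave 0 calls against OVA, 0 at CuO NH3 10 and 0 at CuO COOH 40 + OVA. The dim probe filter, the deposited table and loess each gave 2 calls at CuO NH3 10 and 1 at CuO PEG 40.

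The replicate numbers do not pair the samples: in 0 of 24 comparisons did all same-numbered samples deviate together (r over 0.1). With the replicate block, which has neither array nor slide as a term, there were 32 calls against PBS, 14 against OVA, 22 between materials, 6 at CuO NH3 10, 4 at CuO NH3 40, 8 at CuO PEG 40 and 0 at CuO COOH 40 + OVA. Under the block Insig1 turned to 0.79 at CuO NH3 40, 0.78 at CuO NH3 40 + OVA and 0.60 at CuO PEG 40 + OVA, and Fdft1 to 0.78 at CuO PEG 40 + OVA.

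Leaving out each pool in turn gave 5 to 15 calls against PBS (5 without PBS replicate 3, 8 without PBS replicate 2) and 0 to 1 against OVA. It gave 0 to 3 at CuO 40, 0 to 3 at CuO COOH 10, 0 to 4 at CuO COOH 40, 0 to 3 at CuO NH3 10, 1 to 2 at CuO NH3 40, 0 to 2 at CuO PEG 40 and 0 to 1 at CuO COOH 40 + OVA. Between doses it gave 4 to 8, for CuO PEG 40 against 2.5 4 to 6, between materials 1 to 1 and for exposure by challenge 0 to 0. CuO 2.5 + OVA could not be fitted without its replicate 2. Of 54 uncalled pairs at 40 µg, 20 changed sign under some alternative and 19 were called under some. Signals of all members were well above background in at least 88 of the 89 samples.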
